A study of Arabidopsis thaliana with 6 samples.

Results

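The chloroplast genome of Arabidopsis encodes core subunits of the photosynthetic complexes, and 43 of these genes were measured in leaves of the chr11-1 chr17-1 double mutant and of wild type Col-0. The genes were chosen by name, with earlier results of these data known. Their symbol is psa, psb, pet, ndh or atp followed by 1 capital letter, or rbcL. They are 43 of 13356 genes with a name on the array here, each read by 1 probe set, and every one was found on the plastid genome in the TAIR10.1 gene table. They comprise 15 photosystem II, 5 photosystem I, 6 cytochrome b6f, 10 NDH and 6 ATP synthase genes and rbcL. The chloroplast gene ndhB lies outside this set because its probe set reads both copies of the gene; its mean log2 level was 3.84 and its log2 difference 0.04 (limma adjusted p = 0.828).

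The arrays were 6 single-colour ATH1 arrays, 3 of chr11-1 chr17-1 and 3 of Col-0, all of untreated leaves taken at 15 days from plants grown at 21 °C with 16 h of light and 8 h of dark. The 2 mutated genes, CHR11 and CHR17, are nuclear genes for chromatin remodelling ATPases of the ISWI type, which move nucleosomes on nuclear DNA. The series was made to compare gene expression in the double mutant with that of wild type, and here the question is put to the genes of the chloroplast genome. Separate plants or cultures are not stated for the replicates, so p-values cover only the spread of these samples, possibly a technical one, and 3 arrays a genotype limit the precision.

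Photosystem II splits water and passes electrons through the cytochrome b6f complex to photosystem I, the ATP synthase uses the proton gradient that this builds, and the NDH complex returns electrons from ferredoxin to the plastoquinone pool. Rubisco, whose large subunit is the product of rbcL, fixes carbon dioxide. Each complex also has subunits encoded in the nucleus, and many chloroplast genes lie in operons and are read into shared transcripts that are then cut, spliced and edited. In chloroplasts a poly(A) tail is known mainly as a mark for RNA breakdown, and here cDNA was primed with oligo(dT), per the labels' protocols. The values are therefore signals of RNA that such priming reached, and they give no order of transcript amount among genes. Each rise or fall of a chloroplast gene below is likewise one of this signal. Whether transcript amount or tailing differed between the genotypes was not tested.

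Of 19 entries in the list of leaf markers, 1 was measured with a name. RCA, the activase of Rubisco, had a log2 level of 13.67 in the mutant and 13.90 in wild type, near the top of the range of the arrays (limma adjusted p = 0.0694). Its mutant arrays all lay below its wild-type arrays. It passed with quantile normalization (limma adjusted p = 0.0454), a trended robust prior (0.00317) and array weights (0.0431). The 4 measured markers of root hair, anther and meristem, EXPA7, EXPA18, AMS and CLV3, had mean log2 levels of 3.66 to 4.28 in the mutant and 3.67 to 4.25 in wild type, below the array medians of 4.73 to 4.77. Their summed linear signal was 57.9 to 62.6 in the mutant arrays and 59.1 to 63.7 in the wild-type arrays. None of the 4 passed limma, and 0 had an unadjusted p below 0.05.

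Among the 43 genes, 8 rose and 3 fell in the mutant (limma, Benjamini-Hochberg adjusted p below 0.05). Rises were psbE, psbF, psbL and psbJ, psbK and psbI, psbN, and ndhD, and falls were psbD, psbC and ndhJ. Over all 22746 probe sets 28.6% passed the same test, 14.0% higher and 14.7% lower. Of the 43 genes 25.6% passed, close to that share, but few of them are dim. Outside the lowest 30% of probe sets by mean level, 40.2% of all probe sets passed, against 11 of 38 of these genes. At an adjusted p below 0.01, 5 of the 43 passed, against 19.7% of all probe sets. The changes were small: 1 of the 11, psbI, reached a fold of 2. The median log2 difference was 0.08 over the 43 genes and -0.0028 over all probe sets. The 3 mutant arrays lay all on 1 side of the 3 wild-type arrays for 14 of the 43 genes, 11 above and 3 below, against 39.5% of all probe sets. In leaf samples, fewer cells of a type and less RNA per cell cannot be told apart.

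**Figure D1:**
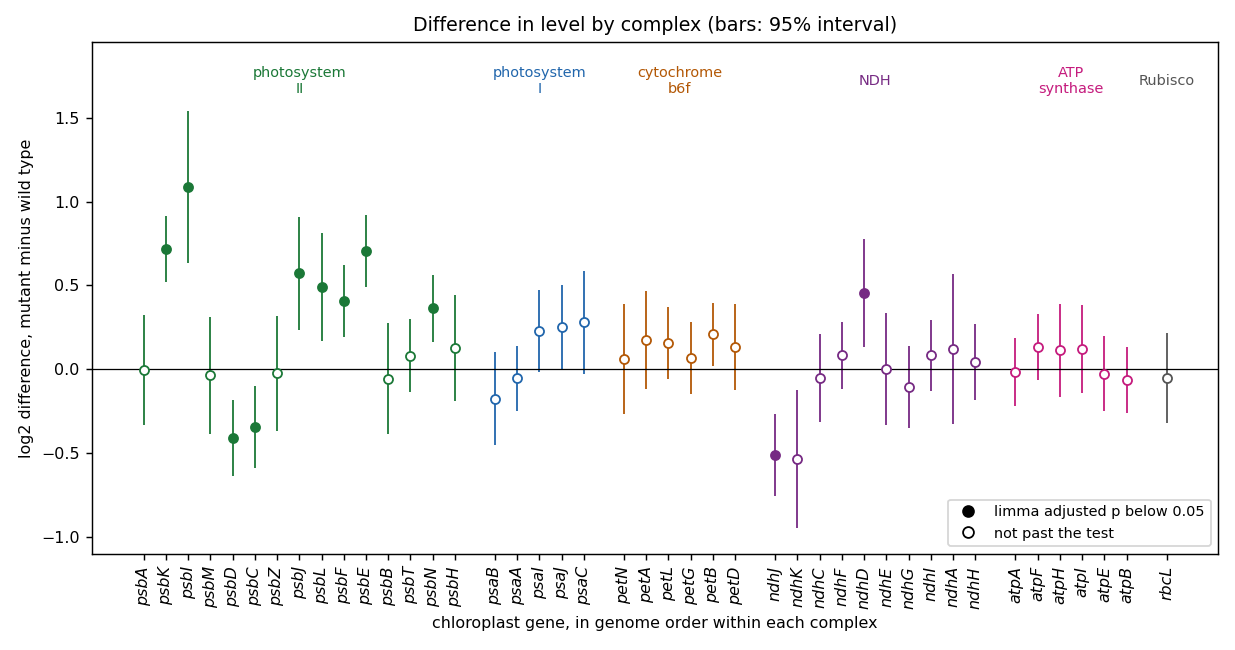
Log2 difference (mutant minus wild type, vertical axis) of each chloroplast gene, grouped by complex along the horizontal axis; points are limma estimates from 3 mutant and 3 wild-type arrays, bars their 95% intervals, and filled points passed at an adjusted p below 0.05. Of the 11 filled points 9 belong to photosystem II, 7 above and 2 below 0, and the other 2 are ndhD and ndhJ.

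In photosystem II, 7 of 15 genes rose and 2 fell, with a median log2 difference of 0.13 and a range of -0.41 to 1.09. The median was 0.051 without wild-type replicate 1 and 0.24 without wild-type replicate 3, and without the second of these arrays 0 of the 15 fell. All 4 genes of the psbE-psbF-psbL-psbJ operon rose. psbE (ArthCp039) and psbF (ArthCp038) encode the alpha and beta subunits of the cytochrome b of photosystem II, and psbL (ArthCp037) and psbJ (ArthCp036) encode single-span subunits that sit beside it.

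psbE had log2 levels of 11.92, 12.03 and 12.10 in the mutant arrays, against 11.28, 11.23 and 11.43 in the wild-type arrays. Every mutant array was above every wild-type array, by a log2 difference of 0.70 (SE 0.10), a 1.63-fold rise (limma adjusted p = 0.00030, range over the alternatives 1.47e-06 to 0.00251). psbF had 12.58, 12.83 and 12.62 in the mutant, against 12.20, 12.30 and 12.30 in wild type, a difference of 0.41 (SE 0.10, limma adjusted p = 0.00879). The groups of psbF did not overlap either, and the wild-type arrays lay close together.

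psbL had 9.65, 10.23 and 9.91 in the mutant, against 9.29, 9.42 and 9.60 in wild type, a difference of 0.49 (SE 0.15, limma adjusted p = 0.0273). psbJ had 11.18, 11.68 and 11.61 in the mutant, against 10.70, 10.89 and 11.16 in wild type, a difference of 0.57 (SE 0.15, limma adjusted p = 0.0165). For both genes mutant replicate 1 was the lowest mutant array and lay just above wild-type replicate 3, the highest wild-type array. Both calls depended on single arrays. For psbL leaving out mutant replicate 2 (0.34, limma adjusted p = 0.0985), mutant replicate 3 (0.50, 0.0602), wild-type replicate 1 (0.42, 0.0929) or wild-type replicate 2 (0.48, 0.0837) ended the call, and its range over the alternatives was 0.00516 to 0.0985. Without the same arrays psbJ had 0.48 (limma adjusted p = 0.0711), 0.51 (0.0592), 0.46 (0.0608) and 0.56 (0.0584) in that order, with a range of 0.00146 to 0.0711.

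psbK and psbI, neighbours that encode single-span subunits at the edge of the photosystem II core, both rose. psbK (ArthCp005) had 9.51, 9.34 and 9.49 in the mutant, against 8.70, 8.72 and 8.77 in wild type, a log2 difference of 0.71 (SE 0.09) or 1.64-fold (limma adjusted p = 0.000162, range over the alternatives 1.2e-05 to 0.0014). It had the lowest adjusted p of the 43 genes, and both groups were tight. psbI (ArthCp006) had 9.19, 9.14 and 9.41 in the mutant, against 7.65, 8.19 and 8.64 in wild type, a difference of 1.09 (SE 0.20) or 2.12-fold (limma adjusted p = 0.00234). The wild-type arrays of psbI were spread over nearly 1 log2 unit, with an SD of 0.50 against 0.14 in the mutant. Its difference was 0.83 to 1.33 when single arrays were left out, and it passed each time.

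psbN (ArthCp051), whose product in tobacco is known as an assembly factor of photosystem II and not as a subunit, had 4.97, 4.76 and 4.88 in the mutant, against 4.53, 4.52 and 4.47 in wild type. It rose by 0.36 on the log2 scale (SE 0.09, limma adjusted p = 0.0121, range over the alternatives 0.00762 to 0.0479). The gene lies between psbT and psbH and is transcribed from the opposite strand. psbT had 0.08 and psbH 0.13 on the log2 scale, and neither passed. The mean level of psbN, 4.69, lay below the array medians.

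psbD and psbC, which share an operon, both fell. psbD (ArthCp017) encodes the reaction centre protein D2 and psbC (ArthCp018) an inner antenna protein. psbD had 4.31, 4.39 and 4.11 in the mutant, against 4.65, 4.61 and 4.78 in wild type, a log2 difference of -0.41 (SE 0.10, limma adjusted p = 0.0111). psbC had 5.71, 5.62 and 5.48 in the mutant, against 6.09, 5.76 and 5.99 in wild type, a difference of -0.35 (SE 0.11, limma adjusted p = 0.0375). The groups did not overlap for either gene, though mutant replicate 1 and wild-type replicate 2 of psbC lay close together, and psbD was dim, with a mean of 4.47 below the array medians. The annotated genes overlap by 53 bases, and the place of the probes is not given in the sources used here.

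Both falls depended on the arrays used. psbD had -0.36 without wild-type replicate 3 and no longer passed (limma adjusted p = 0.0515, range over the alternatives 0.00997 to 0.0515). The call of psbC ended when mutant replicate 2 (-0.36, limma adjusted p = 0.0819), mutant replicate 3 (-0.28, 0.126), wild-type replicate 1 (-0.28, 0.129) or wild-type replicate 3 (-0.32, 0.114) was left out. A trended robust prior also ended it (adjusted p = 0.0782), and so did the replicate block (0.0595); its adjusted p ran from 0.0202 to 0.129 over the alternatives. psbZ, a small subunit gene downstream of psbC, had -0.03 (SE 0.15) and did not pass.

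The other photosystem II genes did not pass. psbA, which encodes the reaction centre protein D1, had 9.41, 9.99 and 9.93 in the mutant, against 9.83, 9.67 and 9.85 in wild type, and the groups overlapped. Its difference of -0.0052 (95% interval -0.33 to 0.32) changed sign with quantile normalization (0.01), median centring (0.0050), array weights (0.07), and without mutant replicate 1 (0.18), wild-type replicate 1 (0.017) or wild-type replicate 3 (0.03). psbB, the gene of the other inner antenna protein, had -0.06 (95% interval -0.39 to 0.27), and psbM, a small subunit gene read near the top of the range of the arrays, had -0.04 (-0.39 to 0.31). All 6 photosystem II genes that did not pass had a 95% interval within 0.5 of 0 on the log2 scale. For psbT, with a mean level of 3.67 among the lowest 30% of probe sets, the interval says little about the transcript.

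**Figure D2:**
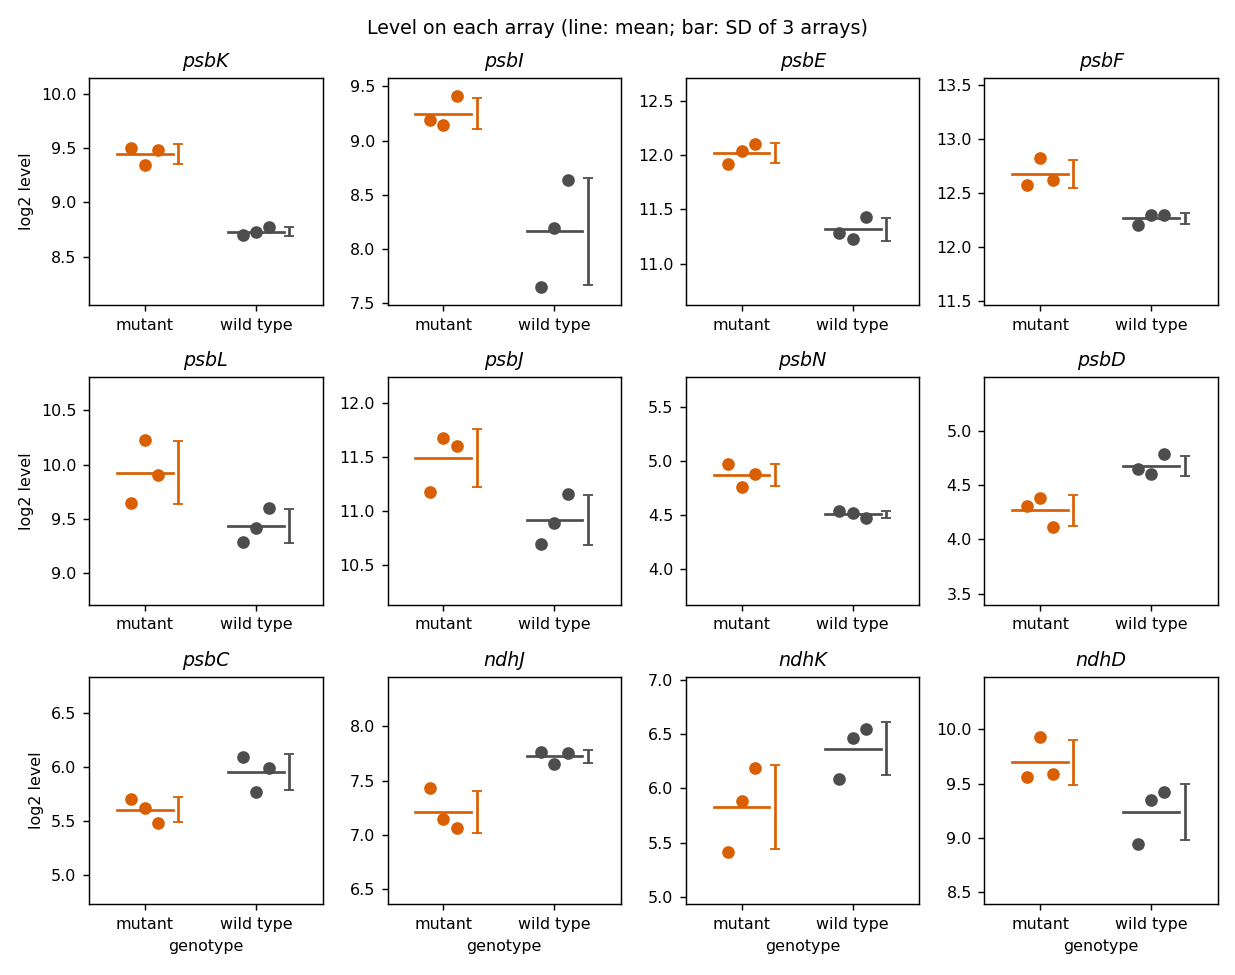
Log2 level (vertical axis, each panel spanning the same number of log2 units) of the 11 genes past the test and of ndhK on each array, with 3 mutant arrays left and 3 wild-type arrays right; lines are means and bars the SD of 3 arrays. The groups are apart in every panel but that of ndhK, and narrowly so for psbL, psbJ, psbC and ndhD.

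In the NDH complex 1 of 10 genes rose, 1 fell and 8 did not pass, with a median log2 difference of 0.02. ndhJ (ArthCp025), which encodes a subunit of the arm outside the membrane, had 7.43, 7.15 and 7.06 in the mutant, against 7.76, 7.65 and 7.76 in wild type. It fell by 0.51 on the log2 scale (SE 0.11, limma adjusted p = 0.00518, range over the alternatives 0.00104 to 0.0243), with every mutant array below every wild-type array. ndhK, its neighbour in the ndhC-ndhK-ndhJ operon and also a gene of that arm, had 5.42, 5.89 and 6.19 in the mutant, against 6.09, 6.47 and 6.55 in wild type. The groups of ndhK overlapped, and its difference of -0.54 (SE 0.19) missed the threshold (limma adjusted p = 0.0536, range over the alternatives 0.00777 to 0.173).

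The call of ndhK depended on the setting. It passed when mutant replicate 3 (-0.71, limma adjusted p = 0.0137) or wild-type replicate 1 (-0.68, 0.0261) was left out. With all 6 arrays it also passed without dim probe sets (0.0339), with a trended robust prior (0.0331), with array weights (0.0278) and with the replicate block (0.00777). ndhC, the third gene of the operon, encodes a membrane subunit and had -0.05 (95% interval -0.31 to 0.21), so the 3 genes had the same sign and different sizes.

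ndhD (ArthCp074), the gene of a proton-pumping membrane subunit, had 9.56, 9.93 and 9.59 in the mutant, against 8.94, 9.35 and 9.43 in wild type. It rose by 0.46 on the log2 scale (SE 0.15, limma adjusted p = 0.0379, range over the alternatives 0.0103 to 0.148). The groups did not overlap, and wild-type replicate 1 was the lowest array. Leaving out mutant replicate 2 (0.34, limma adjusted p = 0.148), mutant replicate 3 (0.51, 0.0506), wild-type replicate 1 (0.31, 0.125) or wild-type replicate 2 (0.51, 0.0605) ended the call. The other genes of its operon that belong to NDH, ndhE, ndhG, ndhI, ndhA and ndhH, had -0.0011, -0.11, 0.08, 0.12 and 0.04 on the log2 scale, and none passed. ndhF, a membrane subunit gene that lies apart from them, had 0.08 at a mean level of 3.66, among the lowest 30% of probe sets.

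None of the 5 photosystem I genes passed limma, and 1 had an unadjusted p below 0.05. psaA and psaB encode the proteins that carry the reaction centre, and psaB had 9.60, 9.19 and 9.13 in the mutant, against 9.54, 9.41 and 9.49 in wild type. The difference of psaB was -0.18 (95% interval -0.45 to 0.10). Without mutant replicate 1, the highest array, it was -0.32 and passed (limma adjusted p = 0.033, range over the alternatives 0.033 to 0.73). psaA had -0.05 at a mean level of 4.41.

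The 3 genes of small photosystem I subunits all had positive differences: 0.28 for psaC, which encodes the iron-sulfur protein that passes electrons to ferredoxin, 0.25 for psaJ and 0.23 for psaI. psaJ had 9.37, 9.44 and 9.59 in the mutant, against 9.00, 9.33 and 9.30 in wild type, and psaI had 8.02, 8.08 and 8.08 in the mutant, against 7.62, 7.88 and 8.01 in wild type. The mutant arrays of these 2 genes lay above the wild-type arrays by a narrow margin (limma adjusted p = 0.133 for psaJ and 0.167 for psaI). psaC overlapped (limma adjusted p = 0.184); leaving out wild-type replicate 2 it passed (0.43, limma adjusted p = 0.0357, range over the alternatives 0.0357 to 0.471).

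All 6 cytochrome b6f genes had positive differences, of 0.06 to 0.21 on the log2 scale, and none passed limma; 1 had an unadjusted p below 0.05. That gene was petB, which encodes cytochrome b6. It had 11.39, 11.32 and 11.35 in the mutant, against 11.11, 11.17 and 11.16 in wild type, so the groups were apart but close, with a difference of 0.21 (SE 0.08, limma adjusted p = 0.0965). petB passed with a trended robust prior (limma adjusted p = 0.0325, range over the alternatives 0.0325 to 0.215). petA, which encodes cytochrome f, had 0.17, and petD, the gene of subunit IV, had 0.13. The small subunit genes petL, petN and petG had 0.16, 0.06 and 0.06, and petL and petG were among the lowest 30% of probe sets. Every 95% interval of the 6 genes lay within 0.5 of 0, the widest bounds being -0.27 and 0.47. The sign of petN turned without wild-type replicate 3 (-0.09), and so did that of petG (-0.0065).

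None of the 6 ATP synthase genes passed limma, 0 had an unadjusted p below 0.05, and the groups overlapped for each of them. atpB, the gene of the catalytic beta subunit, had 12.41, 12.45 and 12.50 in the mutant, against 12.62, 12.46 and 12.47 in wild type, a difference of -0.06 (95% interval -0.26 to 0.13). atpE, which encodes the epsilon subunit and overlaps atpB by 4 bases in the annotation, had -0.03. The alpha subunit gene atpA had -0.02, and the membrane subunit genes atpF, atpH and atpI had 0.13, 0.11 and 0.12. Some alternatives turned the sign of atpA, atpE or atpB. rbcL had 8.74, 8.88 and 8.86 in the mutant, against 9.14, 8.83 and 8.68 in wild type, where the mutant arrays lay inside the range of the wild-type arrays. Its difference was -0.05 (95% interval -0.32 to 0.22).

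Set side by side, 9 of 15 photosystem II genes (60%) passed, against 2 of the 28 genes of the other complexes (7.14%) and 28.6% of all probe sets. Outside the lowest 30% of probe sets by mean level, 9 of 14 photosystem II genes passed, against 40.2% of all such probe sets. On the same basis 2 of 8 NDH, 0 of 4 cytochrome b6f, 0 of 5 photosystem I and 0 of 6 ATP synthase genes passed, and rbcL did not. With single arrays left out, 6 to 9 of the 15 passed, and 1 to 3 of the 28; the photosystem II calls that were lost were of psbL, psbJ, psbD and psbC. Levels averaged over the 15 photosystem II genes were 8.33, 8.39 and 8.35 in the mutant arrays, against 8.04, 8.08 and 8.22 in the wild-type arrays, and these did not overlap. The difference of these averages, 0.24, was about as large as the median difference of the control probe sets on these arrays, 0.22. The 22746 other probe sets had a median difference of -0.0028. For photosystem I the average was 7.29, 7.17 and 7.21 in the mutant, against 7.004, 7.21 and 7.13 in wild type, and for NDH it was 7.51, 7.59 and 7.57 in the mutant, against 7.46, 7.65 and 7.68 in wild type; both overlapped. The cytochrome b6f average was 6.35, 6.32 and 6.39 in the mutant, against 6.33, 6.19 and 6.14 in wild type, and the ATP synthase average was 7.71, 7.78 and 7.81 in the mutant, against 7.73, 7.74 and 7.71 in wild type. The first of these overlapped in mutant replicate 2, and the second in mutant replicate 1. Genes of a complex are not replicates and some share a transcript, so the difference between complexes was not tested.

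The 11 genes past the test fell into 6 of the 17 operons and single genes that hold the 43. The 9 of photosystem II came from 4 of the 7 that hold its genes, so they are fewer independent readings than their number. In 8 of the 11 operons with several members all members had differences of 1 sign, and in 0 did members pass in both directions. Among these 11, every member passed in the psbE operon and in the psbK-psbI pair, and in none of the other 9. In the psbB-psbT-psbH-petB-petD operon none of the 5 passed, with differences of -0.06 to 0.21, and in the atpI-atpH-atpF-atpA operon none of the 4 passed, with differences of -0.02 to 0.13. Of the 26 other chloroplast-encoded genes measured, 3 rose and 5 fell, a share of 30.8% that is close to the 28.6% of all probe sets. The 5 falls were of neighbouring genes for ribosomal proteins, with log2 differences of -1.21 for rpl22, -1.03 for rps3, -0.79 for rpl16, -0.56 for rpl14 and -0.49 for rps19, and the first 4 of these were larger than any fall among the 43 genes. The rises were of accD (0.65), which encodes a subunit of acetyl-CoA carboxylase, ccsA (0.40) and clpP (0.34). Without wild-type replicate 2 the calls of ccsA, the neighbour of ndhD (limma adjusted p = 0.0519), and of clpP (0.0938) were both lost, which left 1 rise. Without mutant replicate 1, 5 genes rose. The calls of rps19 and clpP were each lost without any 1 of 4 arrays, and that of clpP also with the replicate block (limma adjusted p = 0.0575). Of these genes rpl14, rps19, ccsA and clpP were named after their values were seen.

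**Figure D3:**
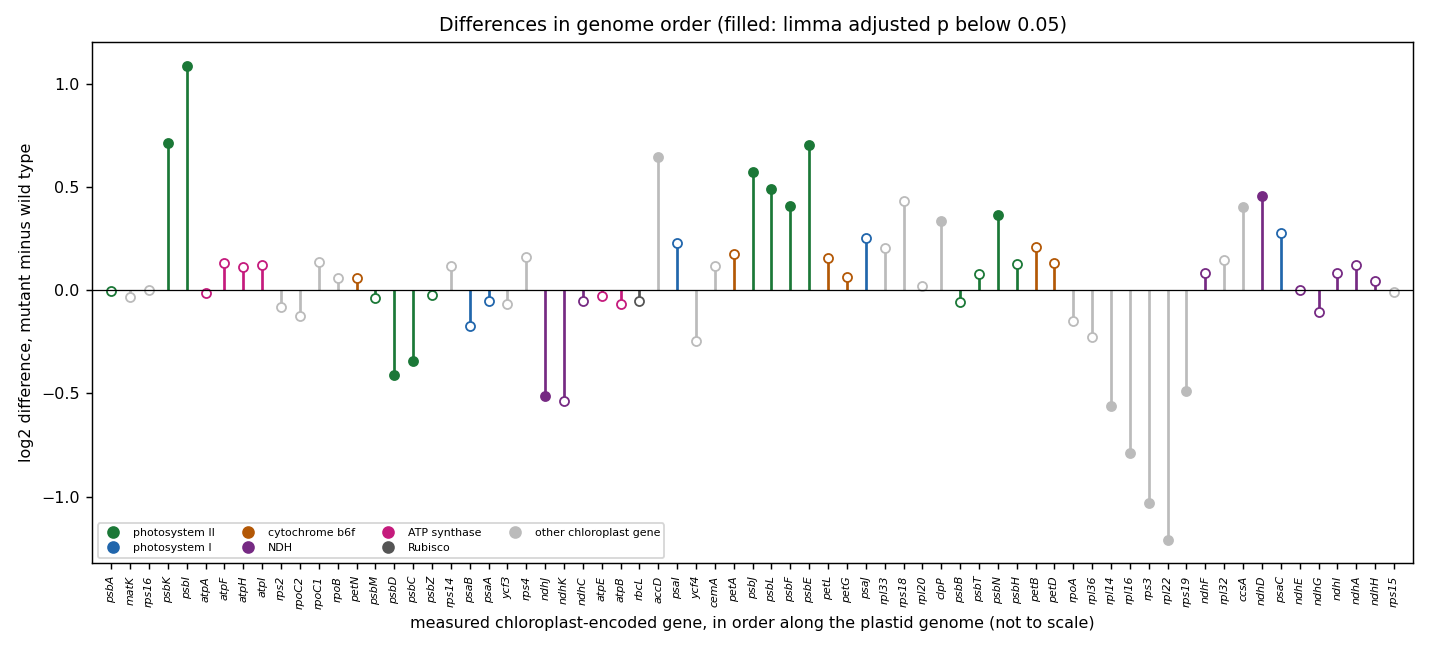
Log2 difference (mutant minus wild type, vertical axis) of 69 chloroplast-encoded genes in their order along the plastid genome (horizontal axis, not to scale); colours give the complex, grey the 26 other genes, and filled points passed limma at an adjusted p below 0.05. psbK and psbI stand together above 0, as do psbJ, psbL, psbF and psbE, while psbD and psbC, and ndhJ and ndhK, stand below it; the 5 grey filled points below 0 are rpl14, rpl16, rps3, rpl22 and rps19.

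The signals of the 43 probe sets ran from a mean log2 level of 3.66 to 13.43, which is percentile 7.85 to 99.9 of all probe sets. In all, 11 of the 43 lay below the lowest array median, and psbD and psbN were the 2 of these that passed. Of the 5 genes in the lowest 30% of probe sets, petL, petG, psbT, ndhF and ndhH, none passed, and 1.70% of all such probe sets passed, against 40.2% of the others. At such low signal a missing call says little about the transcript. Among the 10 genes above the 95th percentile, 3 passed, namely psbE, psbF and psbJ. Of the 32 genes that did not pass, 28 had a 95% interval within 0.5 of 0 on the log2 scale, and all 32 had one within 1.

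**Figure D4:**
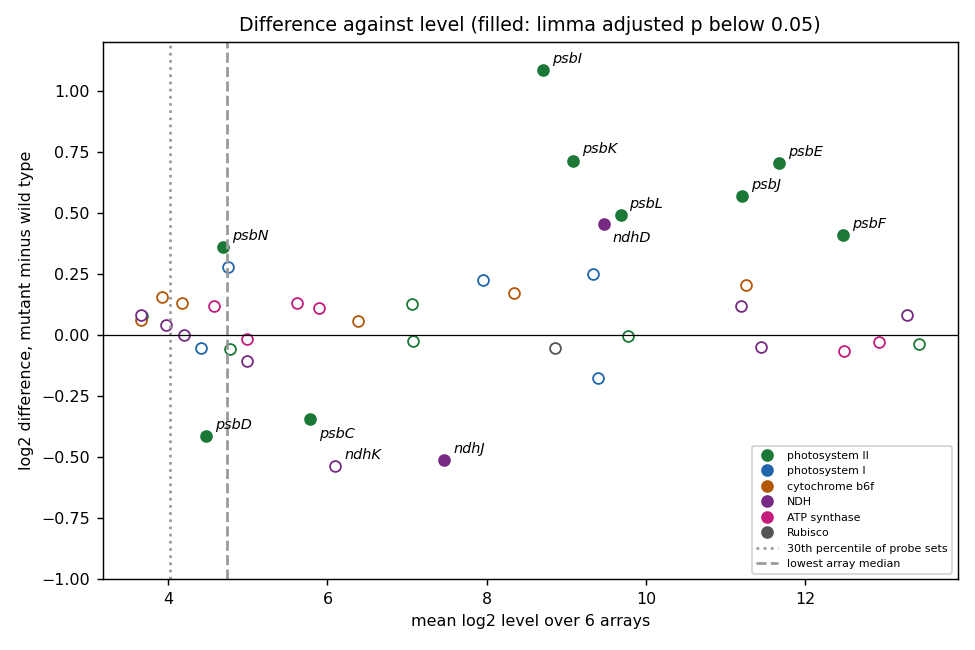
Log2 difference (mutant minus wild type, vertical axis) against the mean log2 level over 6 arrays (horizontal axis) of the 43 genes; filled points passed limma at an adjusted p below 0.05, and the grey lines mark the 30th percentile of probe sets and the lowest array median. The 11 genes past the test lie between 4.47 and 12.5, and none lies left of the 30th percentile.

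Nuclear genes of the same complexes were read from lists chosen by name, with earlier results of these data known. Few members of these lists are named in the probe table used here. It gives 1 gene symbol for 13513 of the 22746 tested probe sets. Listed genes without a name there may still have a probe set. For NDH subunits and assembly factors, 6 of 42 listed names (aliases included) were measured, and all 6 genes fell, against 14.7% of all probe sets. All 6 lay outside the lowest 30% of probe sets by mean level, where 40.2% of all probe sets passed in either direction. The median log2 difference of the 6 genes was -0.87, against -0.0028 over all probe sets. These were CRR42 (-1.15) and CRR41 (-1.01), which encode assembly factors, NdhN (-0.95), NdhL (-0.79) and NdhS (-0.55), which encode subunits, and PIFI (-0.36), the gene of an NDH-associated protein. NdhN had 9.75 ± 0.10 in the mutant and 10.70 ± 0.07 in wild type (SD, n = 3 each; limma adjusted p = 3.51e-05). Each of the 6 passed in every alternative at 0.05. The 10 chloroplast-encoded NDH genes had a median of 0.02, and the difference between the nuclear and chloroplast genes was not tested.

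The 3 nuclear photosystem II genes, PSBW, PSB27 and PSBY, had 0.13, 0.12 and 0.08 on the log2 scale, and the photosystem I genes PSAN and PSAE-1 had 0.03 and -0.02. None of the 5 passed limma, and 0 had an unadjusted p below 0.05. For each of the 3 photosystem II genes the mutant arrays all lay above the wild-type arrays. The groups were apart, in either direction, for 39.5% of all probe sets. In the ATP synthase the gamma subunit gene ATPC1 fell by 0.37 (limma adjusted p = 0.00911), while ATPC2 had -0.09 at a low level. PGRL1B, whose product takes part in cyclic electron flow, had 0.00024. Of 3 genes of the minor antenna protein of photosystem II, LHCB4.3 fell (-1.93, limma adjusted p = 2.27e-06), LHCB4.2 rose (0.54, 0.000747) and LHCB4.1 had -0.09; these are close relatives whose probe sets may share signal.

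**Figure D5:**
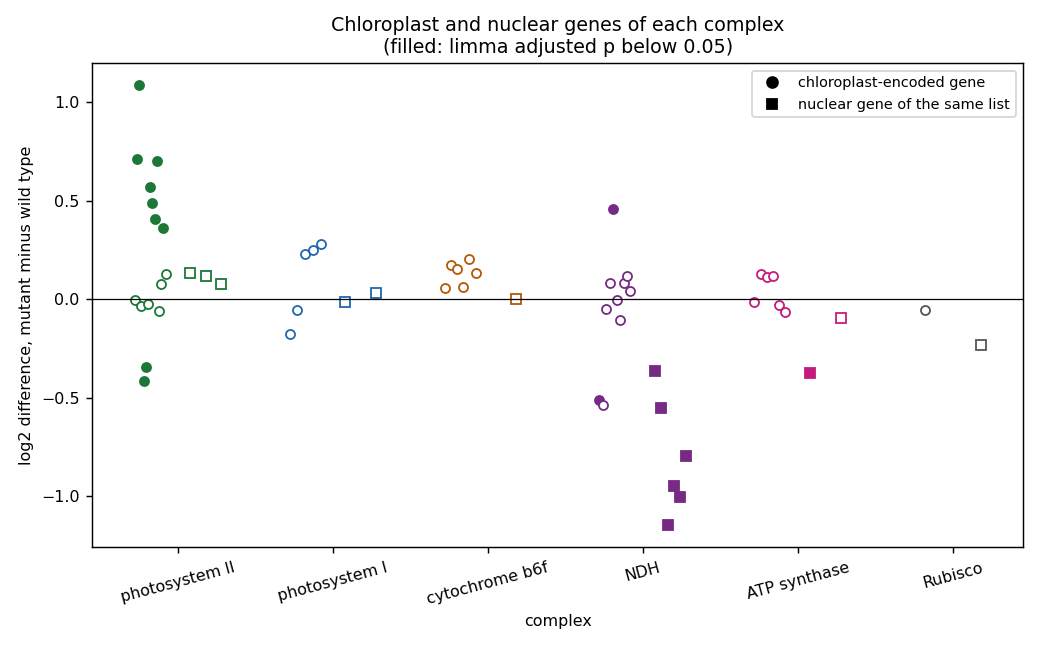
Log2 difference (mutant minus wild type, vertical axis) of chloroplast-encoded genes (circles) and of measured nuclear genes of the same list (squares) for each complex along the horizontal axis; filled points passed limma at an adjusted p below 0.05. All 6 nuclear NDH squares are filled and below 0, while 8 of the 10 chloroplast NDH circles are open.

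Of 7 measured assembly factor genes of these complexes, 4 fell (57.1%, against 14.7% of all probe sets) and 0 rose, with a median of -0.45. All 7 lay outside the lowest 30% of probe sets by mean level, where 40.2% of all probe sets passed in either direction. Without wild-type replicate 2 the number of the 7 that fell was 2. HCF101, which serves the iron-sulfur clusters of photosystem I, fell by 0.66 (limma adjusted p = 0.0009), and the photosystem II assembly genes LPA1, LPA19 and PAM68 fell by 0.54, 0.52 and 0.45. The call of LPA1 was lost without mutant replicate 2 (limma adjusted p = 0.0808), mutant replicate 3 (0.0776), wild-type replicate 2 (0.069) or wild-type replicate 3 (0.0774), and that of PAM68 was lost without wild-type replicate 2 (0.0522). LPA2 had 0.20 (limma adjusted p = 0.137). Of 12 measured genes of plastid RNA processing and editing, 3 fell (25%, against 14.7% of all probe sets) and 0 rose, with a median of -0.18. In either direction 28.6% of all probe sets were called. With single arrays left out, 2 to 4 of the 12 were called. The 3 were CFM3A (-0.90), CRR21 (-0.56) and OTP81 (-0.53). CRR21, which encodes an editing factor for the ndhD transcript, lost its call with the replicate block (limma adjusted p = 0.0852) and without mutant replicate 2 (0.152), mutant replicate 3 (0.0599), wild-type replicate 2 (0.166) or wild-type replicate 3 (0.0738). The list of the plastid transcription machinery had 0 members named in the probe table, so it could not be read here.

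The 3' minus 5' log2 level of the actin control was 3.02 ± 0.07 in the mutant and 3.22 ± 0.06 in wild type, that of GAPDH was 0.84 ± 0.15 in the mutant and 0.63 ± 0.07 in wild type, and that of ubiquitin was 1.08 ± 0.07 in the mutant and 1.12 ± 0.10 in wild type (SD, n = 3 each). The 25S ribosomal RNA control was 8.90 in mutant replicate 1 and 10.85 in the other mutant arrays, against 10.32 to 10.49 in wild type. Without mutant replicate 1, 12 of the 43 genes passed, 8 higher and 4 lower, the added one being psaB. Of the 64 control probe sets 56 had a higher mean in the mutant. Their median log2 difference was 0.22, which is larger than the differences of the photosystem I average (0.11) and the cytochrome b6f average (0.13) and about as large as that of the photosystem II average (0.24). The median over the 22746 other probe sets was -0.0028. The part of these readings in the results was not tested.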

How the data were processed

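The deposited values are log2 expression levels of probe sets on 6 ATH1 arrays, 1 sample each. Per the submitters' processing notes the tools were RMA and Partek; how they were set is not given in the sources used here. Values were used as deposited. After removal of 64 control probe sets from 22810, the remaining 22746 were fitted in R 4.3.3 by limma 3.58.1 (lmFit, then eBayes; mutant minus wild type, two-sided), with Benjamini-Hochberg adjustment over all of them, a threshold of 0.05 and no filter on low values. Figures used Python 3.11.15 and matplotlib 3.10.9.

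Symbols came from the probe table of the platform and the TAIR10.1 gene table, also through synonyms for the nuclear lists. Each member has 1 probe set, none with a cross-hybridisation suffix. Operons follow textbook knowledge of the plastid genome. The members and lists were chosen with earlier results of these data known. Named genes are all members and, from each other list, up to 4 genes past the threshold, or the 2 with the largest changes; others named were added with their values seen. Depth does not apply to arrays; their number limits the precision. The fit was tested on simulated data. Replicate numbers do not pair the arrays, since deviations of arrays with 1 number had r of -0.30 to -0.17. Alternatives were quantile normalization, median centring, leaving out the lowest 30% of probe sets, leaving out suffixed probe sets, a trended robust prior, array weights, a replicate block, leaving out each array, and a threshold of 0.01.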

Additional observations from a re-analysis of the deposited data

How the results depend on the processing

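With 3 arrays a genotype, calls near the threshold moved with single arrays, while psbE, psbF, psbK, psbI, psbN and ndhJ passed in every alternative at 0.05. Of 597 values that the alternatives gave for the 43 genes, 527 had the same sign and the same call, 25 no longer passed, 9 passed there alone and 36 changed sign, 0 of them among the 11 genes past the test. The cause of the changes was not tested. Averaging over probe sets changes nothing, since each member has 1. Leaving out single arrays gave 5 to 8 rises and 1 to 4 falls among the 43 genes; 0 to 1 rises and 0 to 1 falls in photosystem I, 0 to 2 falls in photosystem II, and 0 to 1 rises and 1 to 2 falls in NDH. It moved the median log2 difference to between 0.12 and 0.25 for photosystem I, 0.051 and 0.24 for photosystem II, and -0.0081 and 0.066 for ATP synthase. At a threshold of 0.01, 4 genes rose, all of photosystem II, where 0 fell, and 1 fell, ndhJ, with 0 rises in NDH. NDH had 2 falls without dim probe sets, with a trended robust prior, with array weights and with the replicate block. Photosystem II had 1 fall with a trended robust prior and with the replicate block, where psbC had an adjusted p of 0.0595, and cytochrome b6f had 1 rise with a trended robust prior. As a mean over members the difference was 0.11 for photosystem I and 0.24 for photosystem II, whose median was 0.24 without dim probe sets; ATP synthase had a median of 0.088 after quantile normalization.

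Signs turned with quantile normalization for psbA (0.011) and atpB (0.054), with median centring for psbA (0.0050) and ndhE (0.0090), and with array weights for psbA (0.067), psbM (0.043), atpE (0.0037) and rbcL (0.011). Without single arrays psbA ranged from -0.11 to 0.18, atpA from -0.053 to 0.036, petN from -0.087 to 0.22, psbM from -0.20 to 0.14, psbZ from -0.21 to 0.086, ndhC from -0.15 to 0.046, and atpE from -0.083 to 0.054. In the same settings rbcL ranged from -0.16 to 0.076, petG from -0.0065 to 0.10, psbB from -0.20 to 0.081, psbH from -0.049 to 0.24, ndhE from -0.15 to 0.094, ndhA from -0.14 to 0.30 and ndhH from -0.022 to 0.11. For the other lists, quantile normalization gave 1 fall, of RCA, among the leaf markers and among the Rubisco genes. A trended robust prior and array weights gave the same fall of RCA. Quantile normalization also gave medians of -0.036 for nuclear photosystem I and 0.17 for nuclear photosystem II genes. Without single arrays the medians were -0.93 to -0.75 for nuclear NDH genes, -0.24 to -0.13 for RNA processing genes and -0.55 to -0.39 for assembly factors, with 2 to 4 falls among the last and 1 to 5 rises among other chloroplast-encoded genes.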
